A study of Mus musculus with 78 samples.

Results

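The genes followed here, 10 in all, build or use cell-surface adhesion in the brain: the polysialyltransferase genes St8sia2 and St8sia4, the neural cell adhesion molecules Ncam1 and Ncam2, the L1 family (L1cam, Chl1, Nrcam and Nfasc) and the contactins Cntn1 and Cntn2. They were chosen by name, as 10 of the 18193 genes that the probe sets of the arrays represent. Of the 34 probe sets that name these genes, each gene was read by its brightest, ranked by the mean of 78 arrays, and all 10 passed the filter on low values. The arrays hold total RNA of mouse brain at embryonic day 14 (E14), birth (P0) and postnatal day 14 (P14), and the series asks whether mutants of members of the LIS1 migration complex alter expression alike or distinctly. There are 26 groups of 3 biological replicates, of which 8 groups are from E14, 10 from P0 and 8 from P14.

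The wild types are of a mixed background called A, a mixed background called B (both at all ages) and, at P0 and P14, an inbred background titled WT129s6. The mutants carry Lis1 ko/+ or ko/cko and Ndel1 (Ndel in the labels) ko/+ or ko/cko at all ages, Dcx ko/Y at E14 and P0, and 14-3-3 epsilon ko/ko at E14. On the inbred background there were Ndel1 ko/+ and 14-3-3 epsilon ko/ko at P0, and a further Ndel1 ko/+ group at P14 is labelled as mixed. The labels define neither allele, name no promoter or Cre driver, do not name the strains of the mixed backgrounds and do not say which mixed wild type was bred with which mutant. A mutant was therefore called only where it differed from mixed A and from mixed B in the same direction.

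Polysialic acid is a long sugar polymer that St8sia2 and St8sia4 attach mainly to NCAM, where its bulk and charge weaken contact between membranes while neurons migrate and axons grow. NCAM, the L1 family and the contactins are immunoglobulin-domain proteins of the neuronal surface: L1 family members bind ankyrin inside the cell, and contactins are held in the membrane by a lipid anchor. Neurofascin, NrCAM and contactin-1 also take part in building nodes of Ranvier, while contactin-2, also known as TAG-1, marks growing axons and later the flanks of the node.

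The bases before the start of 5 members are shown so that promoters of genes that fell after birth (St8sia2 and St8sia4) and of genes that rose (Ncam2, Nrcam and Cntn1) can be set side by side. The RefSeq promoter table (GRCm38.p6) matched 9 of the 10 members, and for 6 of these it reached 120 bases before the outermost annotated start of the gene. The sequences follow, 5′ to 3′ on the strand of the gene, with every match on either strand in capitals; the motifs searched were the GC box GGGCGG, the E-box CANNTG, the CCAAT box, the TATA box TATAAA and the SOX core AACAAT.
St8sia2: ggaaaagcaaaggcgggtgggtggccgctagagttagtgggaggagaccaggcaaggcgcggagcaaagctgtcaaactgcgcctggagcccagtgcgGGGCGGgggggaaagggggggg
St8sia4: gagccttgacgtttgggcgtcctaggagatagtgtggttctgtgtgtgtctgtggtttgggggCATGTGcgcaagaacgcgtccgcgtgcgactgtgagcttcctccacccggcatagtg
Ncam2: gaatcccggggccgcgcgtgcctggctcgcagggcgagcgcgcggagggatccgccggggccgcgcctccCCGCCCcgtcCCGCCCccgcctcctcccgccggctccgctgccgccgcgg
Nrcam: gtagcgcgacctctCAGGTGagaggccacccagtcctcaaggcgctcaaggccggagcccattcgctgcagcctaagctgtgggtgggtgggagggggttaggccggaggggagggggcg
Cntn1: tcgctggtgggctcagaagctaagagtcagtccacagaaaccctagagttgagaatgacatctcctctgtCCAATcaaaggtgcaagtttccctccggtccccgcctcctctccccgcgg
They lie at chr7:74013728-74013847 (minus strand), chr1:95667718-95667837 (minus), chr16:81200577-81200696 (plus), chr12:44328666-44328785 (plus) and chr15:92051032-92051151 (plus).

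All of these stretches were richer in G and C than the median promoter of the table, at 67.5% in St8sia2, 59.2% in St8sia4, 85.8% in Ncam2, 69.2% in Nrcam and 56.7% in Cntn1 against a median of 54.2%. St8sia2 held 1 GC box and Ncam2 held 2, a motif found in 26.5% of the 32851 promoters over the same length. St8sia4 and Nrcam held 1 E-box each (40.2% of promoters) and Cntn1 held 1 CCAAT box (21.3%). Neither TATAAA (6.34%) nor AACAAT (4.06%) occurred in these 5 stretches, and no motif overlapped another. No motif among these was found in both polysialyltransferase promoters. In the order of protein-coding genes the polysialyltransferase genes have like neighbours, St8sia2 lying between Fam174b and Slco3a1 and St8sia4 between Fam174a and Slco4c1. Cntn2 and Nfasc are neighbours on chromosome 1, and Chl1 lies between Cntn3 and Cntn6 on chromosome 6.

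The targeted genes were read first. Dcx read 4.58 and 4.30 in ko/Y at E14 and P0 against 12.07 and 12.03 in mixed B, and Ywhae, the gene of 14-3-3 epsilon, read 9.83 in inbred ko/ko at P0 against 12.75. Pafah1b1, the gene of LIS1, read 9.84 to 10.36 in the Lis1 groups against 10.38 to 10.85 in mixed A of the same ages (mixed B read 9.95 at P0, below both Lis1 groups), and Ndel1 read 9.33 in ko/+ and 9.56 in ko/cko at P0 against 9.74 in mixed B. Pafah1b1 was lower in Lis1 ko/cko than in Lis1 ko/+ at E14 (9.84 against 10.07). It was not lower at P0 (10.08 against 10.01) or P14 (10.36 against 10.21). Some arrays stand apart or go against their labels. The first principal component within an age held 48.45% of the variance at E14, 39.4% at P0 and 57.6% at P14, and after birth it set mixed A, the Lis1 groups, the inbred groups and the mix-labelled Ndel1 ko/+ group against mixed B, the remaining Ndel1 groups and Dcx ko/Y. In 6 of the E14 arrays the midbrain, hindbrain and cord markers averaged 4.26 to 4.51, where the other 18 had 5.67 to 6.99; these were replicates 2 and 3 of mixed A, 1 and 3 of Lis1 ko/cko, 1 of Lis1 ko/+ and 2 of 14-3-3 epsilon ko/ko. At E14 the 14-3-3 epsilon ko/ko replicates 1 and 2 kept Ywhae at 12.68 and 12.92, against 9.97 in replicate 3. Ndel1 read 9.45 in ko/+ at E14 against 9.90 in mixed A, but 9.82 in the libraries with the ko/cko label there, 10.06 in the inbred ko/+ libraries at P0 against 9.91 in their wild type, and 10.55 in the mix-labelled ko/+ libraries at P14 against 10.39 in mixed A. Where the deleted stretches lie relative to the probe sets was not checked. Xist, an RNA of female cells, read 11.27 in P0 Dcx ko/Y replicate 2, against its label. The Y-linked Uty read 4.24 on that array. At E14 Xist read 11.91 to 12.02 in Ndel1 ko/cko and 11.99 in mixed B replicate 1, but 4.56 to 4.65 in mixed A. Sex was not a term of any fit.

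The wild types show how the levels of these genes differed between the ages sampled. Both enzyme genes of polysialic acid and Cntn2 were high before and at birth and fell steeply by P14, while Cntn1, Ncam2, Nrcam and Nfasc rose over the same 2 weeks. Ncam1, Chl1 and L1cam rose to birth, and Ncam1 and Chl1 fell after it. Markers of midbrain, hindbrain and cord also differed, reading 4.36 to 6.63 (mixed A) and 5.87 to 6.23 (mixed B) at E14. By P0 these markers read 3.86 to 4.05 (mixed A) and 3.95 to 4 (mixed B). The part of region content in the changes to birth was not tested. Because the deposited values were scaled alike within an age but not between ages, changes between ages are given as log2 change relative to the median gene, with the standard error of limma's linear model (SE, 3 arrays a group). The median gene itself moved by -0.19 from E14 to P0, by 0.13 from P0 to P14 in the mixed backgrounds and by 0.04 in the inbred one, and calls were made on unshifted values.

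**Figure D1:**
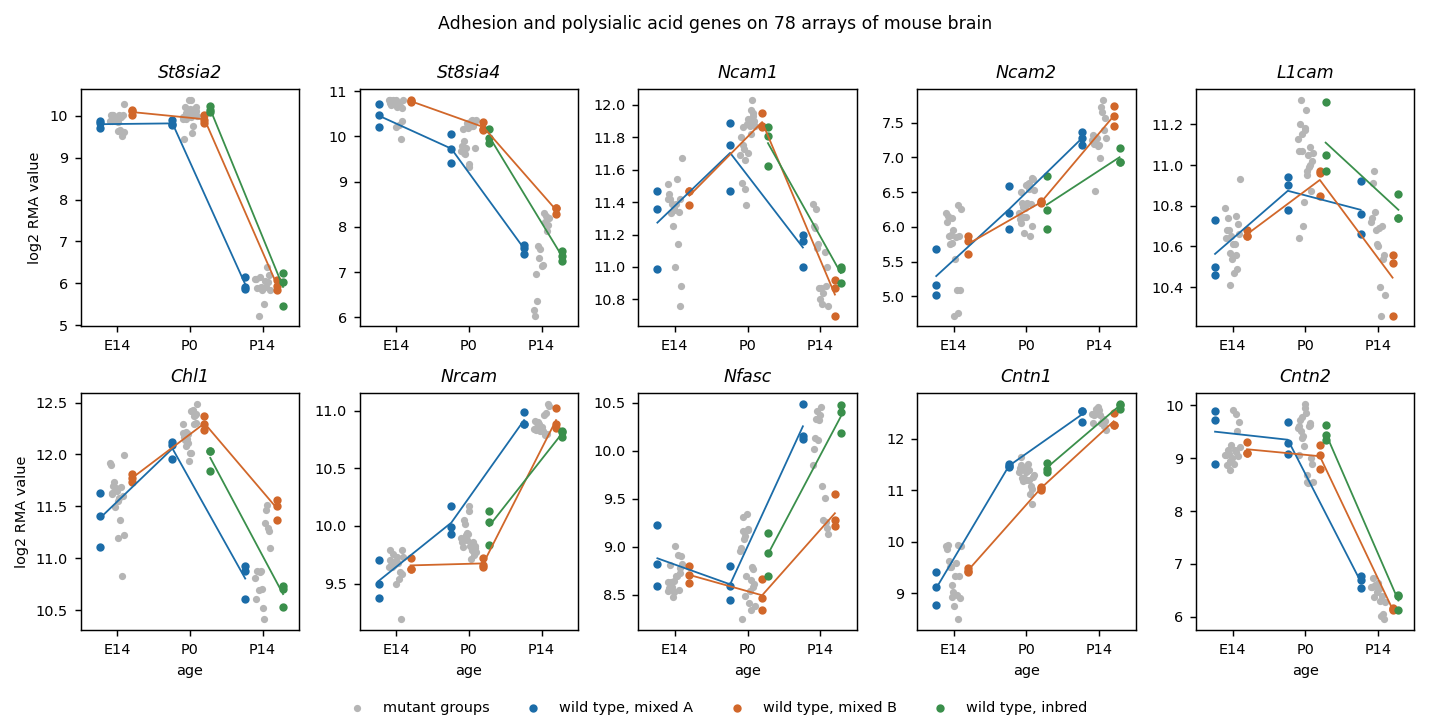
Log2 RMA value (y axis, scale differs between panels) of each gene on each of the 78 arrays by age (x axis). Blue, orange and green points are single arrays of the mixed A, mixed B and inbred wild types, lines join their group means, and grey points are arrays of mutant groups. St8sia2, St8sia4 and Cntn2 are lower at P14 than at P0 on every array, and Cntn1 is higher.

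St8sia2, the polysialyltransferase of the embryonic brain, stayed level to birth and then fell. In mixed A its log2 values were 9.83, 9.71 and 9.87 at E14, 9.77, 9.89 and 9.80 at P0, and 5.91, 6.16 and 5.87 at P14. In mixed B they were 10.11, 10.15 and 10.01, then 9.83, 10.02 and 9.90, then 5.94, 6.07 and 5.83. The inbred arrays read 10.14, 10.24 and 10.08 at P0 and 5.46, 6.26 and 6.03 at P14. The P14 arrays lay more than 3 log2 units below every P0 array in all 3 backgrounds, whereas E14 and P0 arrays overlapped. Relative to the median gene St8sia2 fell by 4.04 ± 0.13 from P0 to P14 in the mixed backgrounds (16.4-fold; limma, Benjamini-Hochberg adjusted p = 1.264e-16) and fell by 4.28 ± 0.13 in the inbred background (19.5-fold; adjusted p = 2.031e-17). From E14 to P0 its change was 0.11 ± 0.13 and was not called (adjusted p = 1). A second St8sia2 probe set, read separately, went from 8.83 at P0 to 5.87 at P14 in the mixed wild types.

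St8sia4, the other polysialyltransferase and the one known to persist in the adult brain, fell in both steps. In mixed A the values were 10.71, 10.47 and 10.21 at E14, 10.06, 9.72 and 9.41 at P0, and 7.54, 7.41 and 7.61 at P14. In mixed B they were 10.76, 10.81 and 10.78, then 10.33, 10.16 and 10.14, then 8.42, 8.29 and 8.41. In the inbred wild type they were 9.98, 9.85 and 10.17 at P0 and 7.26, 7.46 and 7.35 at P14. At no step did arrays of the same background overlap between ages. From E14 to P0 St8sia4 fell by 0.46 ± 0.13 (1.38-fold, adjusted p = 0.000685), a call that ended when all arrays were quantile-normalized together (adjusted p = 0.0545). From P0 to P14 it fell by 2.16 ± 0.13 (4.45-fold, adjusted p = 2.296e-11) in the mixed backgrounds and fell by 2.69 ± 0.13 (6.45-fold, adjusted p = 2.817e-14) in the inbred one. The second St8sia4 probe set changed the same way, from 7.42 at E14 to 7.03 at P0 and 5.36 at P14 over the mixed wild types, where its P14 level is close to the filter of 5.25.

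Ncam1, the main carrier of polysialic acid, rose to birth and fell afterwards. Over the mixed wild types its mean was 11.36 at E14, 11.80 at P0 and 10.97 at P14. Relative to the median gene it rose by 0.63 ± 0.10 (1.55-fold, adjusted p = 0.00147), with overlapping arrays in mixed A, and then fell by 0.95 ± 0.10 (1.94-fold, adjusted p = 4.129e-05). In the inbred background it fell by 0.85 ± 0.10 after birth (adjusted p = 3.806e-07), which is -0.80 before the shift of the median gene. There the other probe sets that passed changed by -0.32, -0.06, -0.02 and -0.0022 (unshifted), and the mean of all probe sets gave -0.24 (adjusted p = 0.00664). Of 7 Ncam1 probe sets 5 passed the filter, and their P0 to P14 changes were all negative in mixed A and mixed B but ranged from -0.03 to -2.06 before the shift of the median gene. Which isoforms these probe sets measure was not tested.

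Ncam2, a relative of NCAM that is not known to carry polysialic acid, rose in both steps. In the mixed wild types its mean went from 5.52 at E14 to 6.30 at P0 and 7.44 at P14. The rise was 0.97 ± 0.18 (1.96-fold, adjusted p = 0.00675) to birth, then 1.00 ± 0.18 (2.00-fold, adjusted p = 2.822e-05), and 0.64 ± 0.18 in the inbred background (adjusted p = 0.00151). No arrays of the same background overlapped between ages. Its first step rested on this probe set: the only other Ncam2 probe set that passed went from 5.02 to 4.45, and the mean of both gave a change of 0.10 before the shift of the median gene (adjusted p = 1).

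L1cam, the X-linked founder of its family, stayed within a narrow range. Over the mixed wild types it averaged 10.61 at E14, 10.90 at P0 and again 10.61 at P14. The rise to birth was 0.48 ± 0.09 (1.39-fold, adjusted p = 0.01875), and this call ended when either replicate 2 or replicate 3 of mixed B at P0 was left out (adjusted p = 0.0581 and 0.0617). The change after birth read -0.09 in mixed A with overlapping arrays and -0.48 in mixed B without overlap (unshifted), and was not called over both (adjusted p = 0.449). In the inbred background it was -0.37 ± 0.09 (adjusted p = 0.0028). After joint quantile normalization the change in the mixed backgrounds was called as well (-0.45 unshifted, adjusted p = 0.0196).

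Chl1, the close homolog of L1, rose to birth and fell after it. Its arrays read 11.63, 11.41 and 11.11 at E14, 11.96, 12.12 and 12.09 at P0 and 10.88, 10.61 and 10.92 at P14 in mixed A. They read 11.77, 11.73 and 11.81, then 12.37, 12.24 and 12.29, then 11.37, 11.50 and 11.56 in mixed B. The ages did not overlap in either background. The rise was 0.79 ± 0.10 (1.73-fold, adjusted p = 9.822e-05), the fall -1.17 ± 0.10 (2.25-fold, adjusted p = 1.594e-07) and the inbred fall -1.36 ± 0.10 (2.56-fold, adjusted p = 5.273e-11).

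Nrcam and Nfasc, the L1 family members of axon initial segments and nodes, rose after birth. Nrcam went from 9.85 to 10.92 over the mixed wild types, a rise of 0.93 ± 0.08 (1.91-fold, adjusted p = 3.046e-09), and rose by 0.75 ± 0.08 in the inbred background (adjusted p = 1.258e-08). Nfasc went from 8.55 to 9.80, a rise of 1.12 ± 0.15 (2.17-fold, adjusted p = 2.699e-05), and rose by 1.39 ± 0.15 (2.62-fold) in the inbred background (adjusted p = 1.092e-08). The P0 and P14 arrays of both genes were apart in every background. Neither was called from E14 to P0. Nrcam had a change of 0.45 ± 0.08 there (adjusted p = 1), made of an unshifted 0.50 in mixed A and 0.02 in mixed B, and Nfasc one of -0.05 ± 0.15 (adjusted p = 0.261). Nrcam was called from E14 to P0 in opposite directions by alternative processing, lower with the mean of all probe sets (-0.44 unshifted, adjusted p = 0.00426) and higher with joint quantile normalization (0.52, adjusted p = 0.00726). Their other probe sets differed from these: an Nrcam probe set fell by 2.09 in mixed A and 0.95 in mixed B to birth (unshifted), and with the mean of all probe sets Nfasc was no longer called after birth (0.42, adjusted p = 0.555).

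Cntn1, a contactin of the contacts between axons and myelinating glia, had the largest rise to birth among the 10 genes. In mixed A its arrays read 9.42, 8.77 and 9.11 at E14, 11.47, 11.45 and 11.50 at P0 and 12.32, 12.54 and 12.54 at P14. In mixed B they read 9.44, 9.49 and 9.42, then 11.01, 11.04 and 11.07, then 12.26, 12.49 and 12.26. Each age lay wholly above the one before. The rise was 2.17 ± 0.10 to birth (4.51-fold, adjusted p = 2.039e-11) and 1.02 ± 0.10 after it (2.02-fold, adjusted p = 1.762e-08), with 1.16 ± 0.10 in the inbred background (adjusted p = 5.406e-10). All 3 Cntn1 probe sets rose in both steps in both mixed backgrounds.

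Cntn2, the contactin of growing axons, moved the other way after birth. Its arrays read 8.89, 9.72 and 9.90 at E14, 9.29, 9.68 and 9.07 at P0 and 6.69, 6.77 and 6.55 at P14 in mixed A. In mixed B they read 9.10, 9.31 and 9.09, then 8.80, 9.25 and 9.06, then 6.12, 6.14 and 6.17. E14 and P0 overlapped and P14 lay apart. The change to birth was 0.05 ± 0.19 (adjusted p = 0.656), and after birth Cntn2 fell by 2.92 ± 0.19 (7.54-fold, adjusted p = 1.824e-11), and in the inbred background it fell by 3.21 ± 0.19 (9.22-fold, adjusted p = 7.287e-13). All 4 Cntn2 probe sets fell from P0 to P14 in all 3 backgrounds.

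**Figure D2:**
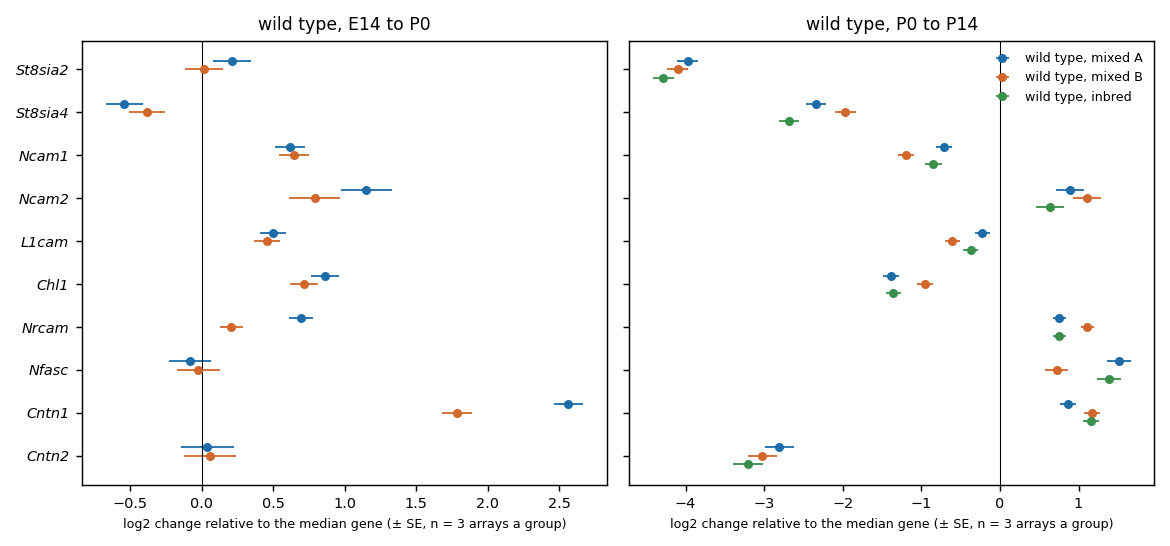
Log2 change of each gene relative to the median gene (x axis, ± SE, 3 arrays a group) in each wild-type background from E14 to P0 (left) and from P0 to P14 (right). St8sia2, Cntn2 and St8sia4 lie farthest below 0 after birth, and Cntn1 lies farthest above 0 before it.

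Over the 10 genes, 6 were called from E14 to P0 in the mixed backgrounds, 5 higher and 1 lower, where 49.8% of the 12864 genes tested were called (14.8% higher and 35.0% lower). Quantile-normalizing all arrays together gave 6 higher and 0 lower. From P0 to P14, 9 were called, 4 higher and 5 lower, against 56.4% of all genes (34.3% higher and 22.1% lower), and in the inbred background 10 were called, 4 higher and 6 lower, against 71.7% (38.0% and 33.8%). The median absolute change of the members after birth was 1.07 in the mixed backgrounds and 1.26 in the inbred one, where that of all genes tested was 0.48 and 0.52. At the first step it was 0.47 against 0.38. In whole tissue, fewer cells of a type and less RNA per cell cannot be told apart. The mean level of 10 markers of migrating and newborn neurons, all above the filter, fell from between 8.88 and 10.51 over the E14 arrays to between 8.11 and 9.22 at P0 and between 6.97 and 7.48 at P14. This list holds Dcx itself, and the Dcx ko/Y arrays are the lowest at E14 (8.88 to 9.19) and P0 (8.11 to 8.35); those of the other groups start at 9.56 and 8.62. The mean level of the 9 markers of myelinating oligodendrocytes on the array, all above the filter over the series, was between 5.47 and 5.82 at P0 and between 8.92 and 9.95 at P14. Their part in the changes of the adhesion genes was not tested.

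**Figure D3:**
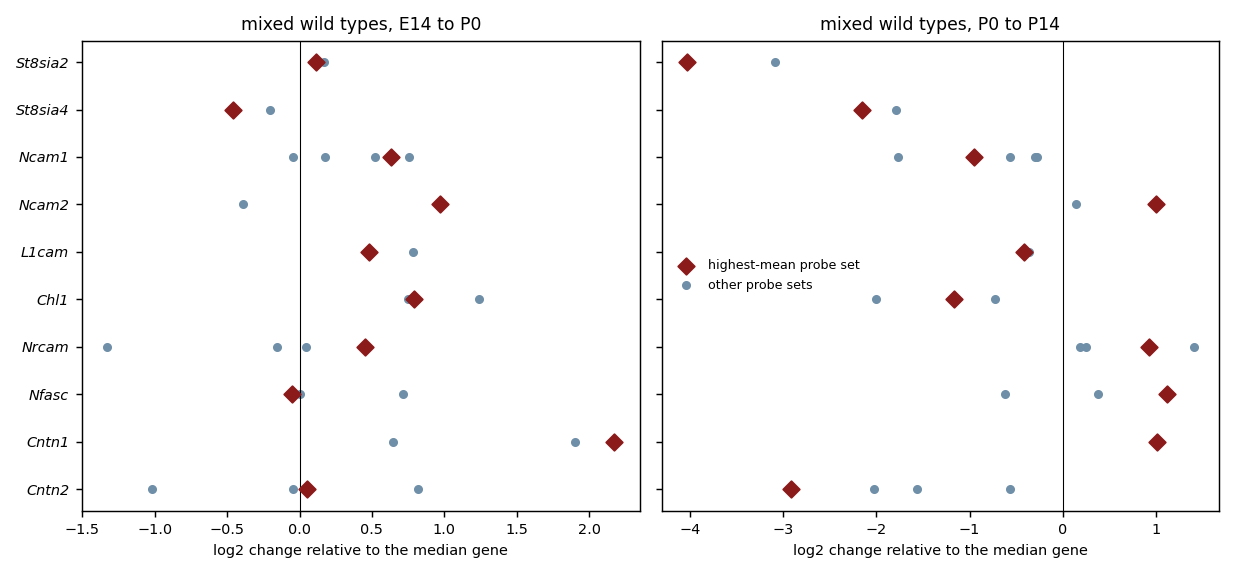
Log2 change relative to the median gene (x axis, mean of both mixed wild types) of every probe set that passed the filter, by gene, from E14 to P0 (left) and from P0 to P14 (right). Diamonds mark the highest-mean probe set used in the text. The probe sets of St8sia2, St8sia4, Chl1 and Cntn2 all lie below 0 after birth, whereas those of Nrcam, Nfasc, Ncam1, Ncam2 and Cntn2 lie on both sides of 0 in the first step.

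Genes around these members were taken from 5 lists written from general knowledge, 66 of whose genes were tested in the wild types. From E14 to P0, 28 were higher and 12 lower, and from P0 to P14, 27 were higher and 14 lower, in the mixed backgrounds. The lists were made with earlier results of these data in view and carry no test of their own. Of 10 tested genes that make, move or remove sialic acid, 1 was higher and 2 lower to birth, and 4 were higher and 3 lower after it. St8sia5, a sialyltransferase of gangliosides and no maker of polysialic acid, rose by 2.72 ± 0.12 after birth while the polysialyltransferase genes fell. Nans, the sialic acid synthase, fell by 1.11 ± 0.12, St8sia1 fell by 0.87 ± 0.15 and the lysosomal sialidase Neu1 rose by 0.65 ± 0.14.

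Among 11 tested carriers of polysialic acid and partners of NCAM, 6 were higher and 4 lower to birth and 3 higher and 4 lower after it. The neuropilin Nrp2, itself a carrier of polysialic acid, fell by 1.91 ± 0.12 after birth and the receptor Fgfr1 by 1.22 ± 0.17. Gap43, of growth cones, rose by 0.64 ± 0.11 to birth and fell by 0.81 ± 0.11 after it. Neurocan (Ncan), a matrix ligand of NCAM, rose by 1.33 ± 0.17 to birth.

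Among 11 tested contactins and contactin partners, 5 were higher and 2 lower to birth, and 5 higher and 3 lower after it. Cntn6 rose by 2.23 ± 0.22 to birth. The matrix ligand tenascin-C (Tnc) rose by 1.42 ± 0.11 to birth and fell by 2.71 ± 0.11 after it, whereas tenascin-R (Tnr) rose in both steps, by 1.42 ± 0.16 and 1.17 ± 0.16. Cntn5 rose by 0.81 ± 0.14 and then fell by 1.08 ± 0.14, the same directions as Chl1.

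Among 13 tested anchors and partners of the L1 family, 5 were higher and 3 lower to birth and 6 higher and 3 lower after it. The sodium channel genes Scn2a (1.68 ± 0.14, then 1.22 ± 0.14) and Scn8a (0.89 ± 0.11, then 1.86 ± 0.11) and the spectrin gene Sptbn4 (1.00 ± 0.11, then 1.01 ± 0.11), whose products gather with neurofascin at axon initial segments and nodes, rose in both steps. Dlg1 rose by 2.20 ± 0.13 after birth. The ERM proteins radixin (Rdx), moesin (Msn) and ezrin (Ezr) fell to birth by 0.99 ± 0.12, 0.80 ± 0.11 and 0.73 ± 0.13.

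Other Ig adhesion molecules gave 11 higher and 1 lower of 21 to birth, and 9 higher and 1 lower after it. Thy1 rose by 3.85 ± 0.18 and then by 3.68 ± 0.18, and Icam5, of forebrain dendrites, by 1.53 ± 0.13 and 3.39 ± 0.13. The IgLON gene Opcml rose by 2.45 ± 0.12 to birth, and neuroplastin (Nptn) by 1.32 ± 0.08 after it. Every rise or fall of a partner gene given here had an adjusted p under 0.05 in limma.

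Over the 26 groups all P14 groups lay below all E14 and P0 groups for St8sia2, St8sia4 and Cntn2, where E14 and P0 groups interleaved, and Cntn1 was ordered by age throughout. The St8sia2 means ran from 10.31 in the inbred 14-3-3 epsilon ko/ko group at P0 to 5.74 in the mix-labelled Ndel1 ko/+ group at P14, and only 1 of the 25 steps between neighbours in that order separated arrays that did not overlap. For St8sia4 the order ran from 10.79 (Ndel1 ko/+ at E14) to 6.39 (Lis1 ko/cko at P14) with 2 such steps, for Cntn1 from 12.64 (inbred wild type at P14) to 9.04 (Dcx ko/Y at E14) with 4, and for Cntn2 from 9.94 (inbred 14-3-3 epsilon ko/ko at P0) to 6.10 (Ndel1 ko/cko at P14) with 2. L1cam had the narrowest range, 11.22 (Lis1 ko/cko at P0) to 10.45 (mixed B at P14), and no step between its neighbours was free of overlap.

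Some genes of the 13052 tested ran nearly parallel to a member over the 26 group means, which mostly reflect age. By Pearson's r, the nearest to St8sia2 were Nkain1 (0.997), Sh3bp2 (0.996) and Gprin2 (0.996), and the nearest to St8sia4 were Zbtb41 (0.998), Zfp451 (0.989) and Tbc1d14 (0.988). Cntn2 was followed most closely by Nfil3 (0.993), Pfkfb3 (0.992) and Sox12 (0.989), and Cntn1 by Dlg2 (0.994), Aqp4 (0.993) and Sptbn1 (0.993). The nearest were Nlgn3 (0.964) for Ncam1, AI593442 (0.977) for Ncam2, Nexmif (0.984) for Chl1, Tgm6 (0.988) for Nrcam, Mark2 (0.977) for Nfasc and Tle2 (0.921) for L1cam. Cntn5, another contactin, stood close to Chl1 as well (0.958).

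Mixed A and mixed B, compared as wild types of a single age, differed in several of these genes. At E14 none of the 10 was called (0.0681% of 11743 genes were), at P0 3 were (28.7% of 11779, 18.1% higher and 10.7% lower) and at P14 6 were (52.7% of 12296, 37.5% higher and 15.2% lower). At P14 Nfasc was 0.90 ± 0.11 higher in mixed A (10.49, 10.12 and 10.15 against 9.55, 9.28 and 9.22; adjusted p = 7.443e-07), and St8sia4 was 0.86 ± 0.22 lower (7.54, 7.41 and 7.61 against 8.42, 8.29 and 8.41; adjusted p = 0.00228). Chl1 was 0.67 ± 0.09 lower in mixed A (adjusted p = 2.13e-06), and Cntn2 was 0.53 ± 0.12, L1cam 0.33 ± 0.10 and Ncam1 0.29 ± 0.08 higher. The arrays of all 6 were apart, but the share of all genes with arrays apart was not counted. With the mean of all probe sets Chl1 (-0.12, adjusted p = 0.5002) and Cntn2 (0.10, adjusted p = 0.364) were no longer called, and the other Chl1 probe sets that passed read 0.18 and 0.14 higher in mixed A. The median gene was 0.14 higher in mixed A at P14, so that Ncam1 was 0.15 and L1cam 0.19 above it. The L1cam call ended without mixed A replicate 1 (adjusted p = 0.0562) or mixed B replicate 3 (adjusted p = 0.0685). At P0 Cntn1 (0.43 ± 0.11) and Nrcam (0.35 ± 0.07) were higher and Chl1 (0.24 ± 0.06) lower in mixed A. All 3 depended on the choice of probe sets. With the mean of all probe sets Cntn1 was not called (0.11, adjusted p = 0.333), Chl1 turned its sign without a call (0.12, adjusted p = 0.556) and Nrcam was called lower in mixed A (-0.27, adjusted p = 0.0171). With all 78 arrays in 1 fit the calls of Cntn1 (adjusted p = 0.0663) and Chl1 (adjusted p = 0.149) ended. A second Ncam1 probe set was 0.33 lower in mixed A at P14. The 9 oligodendrocyte markers were also higher in mixed A at P14, 9.68 (9.59 to 9.75) against 9.22 (9.05 to 9.35). Those of astrocytes (11.06 against 10.63), endothelium (7.61 against 7.11), oligodendrocyte precursors (9.37 against 9.12), neural progenitors (7.35 against 7.14) and meninges (7.194 against 7.035) were higher too. Those of neurons (11.81 against 11.89), of newborn neurons (7.16 against 7.38) and of cortex and hippocampus (8.32 against 8.70) were lower. No arrays overlapped in any of these lists. Their part in these differences was not tested.

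The inbred wild type did not differ from both mixed wild types in any of the 20 values at P0 and P14 (limma; unadjusted p was under 0.05 in 2 of them), where 1.00% of genes at P0 and 0.244% at P14 were called.

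Next, the mutant groups were compared with wild types of their age. Which mixed wild type belongs to which mutant is not labelled, so a difference may be one of background. At E14 none of the 60 values (6 mutants, 10 genes) was called against both mixed wild types, and none had an unadjusted p under 0.05; 0.0341% of genes were called for Ndel1 ko/+, 0.0426% for Dcx ko/Y and 0% for the other mutants. At P0 none of 50 was called, with 4 of them at unadjusted p under 0.05, against 0% of genes for Lis1 ko/+, 0.331% for Lis1 ko/cko, 4.04% for Ndel1 ko/+, 0.840% for Ndel1 ko/cko and 0.0255% for Dcx ko/Y. On the inbred background at P0 none of 20 was called and 4 had an unadjusted p under 0.05 (0.255% of genes for Ndel1 ko/+ and 0.0255% for 14-3-3 epsilon ko/ko). At P14 1 of 50 was called: St8sia4 in Lis1 ko/cko, where 6.32% of genes were called (3.52% higher and 2.80% lower). The other P14 mutants had none, against 0% of genes for Lis1 ko/+, 0% for Ndel1 ko/+, 0.0895% for Ndel1 ko/cko and 0.114% for the mix-labelled Ndel1 ko/+ group.

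In Lis1 ko/cko brains at P14 the 3 arrays read 6.16, 6.04 and 6.97 for St8sia4. Lis1 ko/+ read 6.37, 7.58 and 7.31, mixed A 7.54, 7.41 and 7.61, and mixed B 8.42, 8.29 and 8.41. The ko/cko arrays lay below all mixed wild-type arrays and overlapped with Lis1 ko/+, whose replicate 1 lay among them. St8sia4 was 1.13 ± 0.22 lower than in mixed A and 1.99 ± 0.22 lower than in mixed B (adjusted p = 0.00813). The call ended without Lis1 ko/cko replicate 1 (adjusted p = 0.0671) or without replicate 2 (adjusted p = 0.0829), with changes of -1.45 and -1.39. Against mixed A alone, with which the Lis1 groups lie on the first principal component, 13.9% of genes were called and St8sia4 with them (adjusted p = 0.00361). Against Lis1 ko/+ the difference was -0.70 ± 0.22 (adjusted p = 0.0493), where 8.02% of genes were called (5.16% higher and 2.86% lower). That call ended in 4 of 6 fits that left out 1 array (Lis1 ko/cko replicate 1 or 2, adjusted p = 0.238 and 0.26; Lis1 ko/+ replicate 2 or 3, adjusted p = 0.229 and 0.166). It also ended with no filter (adjusted p = 0.0606) and with the mean of both probe sets (-0.29, adjusted p = 0.112).

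The second St8sia4 probe set did not show this difference. It read 5.21 ± 0.03 in Lis1 ko/cko, 5.10 ± 0.16 in Lis1 ko/+, 5.30 ± 0.15 in mixed A and 5.43 ± 0.05 in mixed B (SD, 3 arrays each), a change of -0.15 ± 0.12 (adjusted p = 1) at a level close to the filter of 5.25. With the mean of both probe sets the difference was -0.86 ± 0.12 (adjusted p = 0.00615). The choroid plexus markers, 5 of the 6 above the filter over the series, were also lower in Lis1 ko/cko, with a mean level of 5.27 (5.13 to 5.54) against 6.63 (6.43 to 6.74) in mixed A and 6.09 (5.49 to 6.53) in mixed B. The markers of migrating and newborn neurons read 7.12 (7.03 to 7.19) against 7.16 (7.12 to 7.21) and 7.38 (7.36 to 7.40). The choroid plexus markers also read 5.24 (4.69 to 6.05) in Ndel1 ko/cko at P14, where St8sia4 averaged 8.05. The part of these markers in the St8sia4 difference was not tested.

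**Figure D4:**
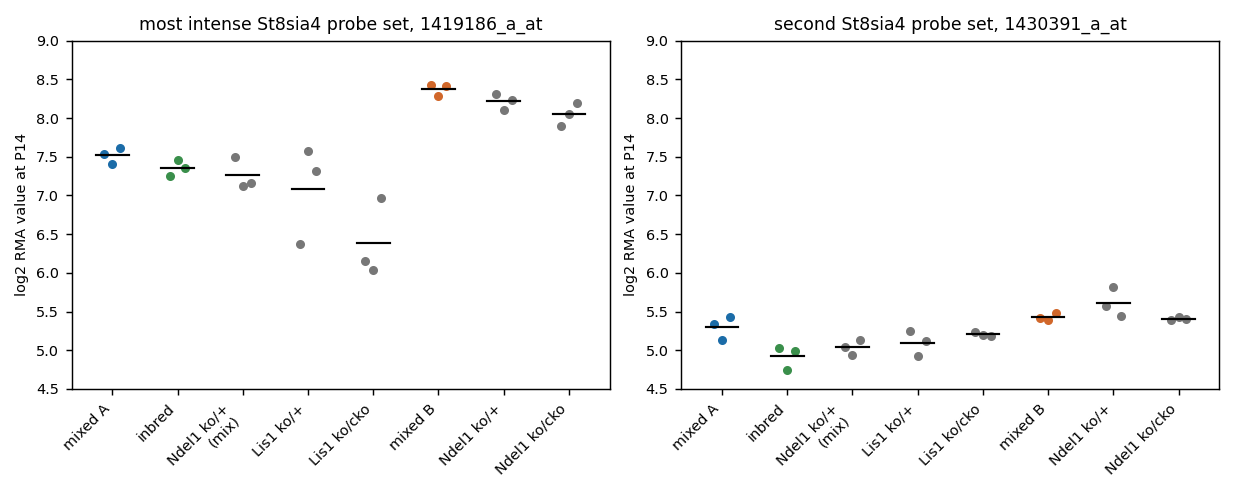
Log2 RMA value at P14 (y axis) of the highest-mean St8sia4 probe set (left) and of the second one (right) on each array, by group (x axis; black bars are means of 3 arrays; blue, orange and green mark the wild types). On the left the 3 Lis1 ko/cko arrays lie between 6.04 and 6.97, below all wild-type arrays, and on the right all arrays lie between 4.74 and 5.81.

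The age step itself was compared between mutants and mixed wild types with an interaction term over all 78 arrays. Of 90 such values, 1 was called, with 5 at unadjusted p under 0.05: from P0 to P14 St8sia4 fell by 1.30 ± 0.29 more in Lis1 ko/cko than in the mixed wild types (1.11 more than in mixed A and 1.49 more than in mixed B; adjusted p = 0.0224), where 2.87% of genes were called (2.22% higher and 0.644% lower). Leaving out P0 mixed A replicate 3, P0 Lis1 ko/cko replicate 1, P14 Lis1 ko/cko replicate 1 or 2, or P14 mixed A replicate 3 ended the call (adjusted p between 0.058 and 0.126). For the second St8sia4 probe set the value was -0.03 ± 0.30 (adjusted p = 1). No member was called in the other 8 interactions, where the share of genes called was 0% for Lis1 ko/+ in both steps and Dcx ko/Y, 0.138% for Lis1 ko/cko, 0.942% for Ndel1 ko/+ and 0.199% for Ndel1 ko/cko from E14 to P0, and 0.0613% for Ndel1 ko/+ and 0.0460% for Ndel1 ko/cko from P0 to P14.

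Of 67 partner genes tested in Lis1 ko/cko at P14, 1 was higher and 1 lower than both mixed wild types, where 6.32% of all genes were called. Ezrin (Ezr) was 0.64 ± 0.14 higher (adjusted p = 0.0217) and nectin-3 (Nectin3) 1.14 ± 0.16 lower (adjusted p = 0.0133). Other mutants with partner calls against both were Ndel1 ko/+ at P0 (1 higher and 4 lower of 66, 4.04% of genes) and mix-labelled Ndel1 ko/+ at P14 (0.114% of genes). In the latter Gap43 was 0.36 ± 0.06 lower (limma, adjusted p = 0.0288). Tenascin-C (Tnc) was 1.04 ± 0.23 lower than in Lis1 ko/+ (adjusted p = 0.00956), and from P0 to P14 it fell by 1.43 ± 0.32 more than in the mixed wild types (adjusted p = 0.0152).

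Within the mutants, ko/cko was compared with ko/+ of the same gene. Ndel1 itself read higher in ko/cko (9.56) than in ko/+ (9.33) at P0, and Pafah1b1 was not lower in Lis1 ko/cko (10.36) than in ko/+ (10.21) at P14. Of 60 values 5 were called, the St8sia4 difference above and 4 in Ndel1 at P0, where 9.13% of genes were called (5.93% higher and 3.21% lower). After joint quantile normalization 4 were called, 1 higher and 3 lower. No value was called at E14, in Lis1 at P0 or in Ndel1 at P14 (0.0426% of genes for Lis1 and 0.128% for Ndel1 at E14, 0.569% and 0.309%), and over all 60 values 12 had an unadjusted p under 0.05.

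Cntn2 gave the largest of these. Its P0 arrays read 9.61, 9.67 and 9.63 in Ndel1 ko/cko and 8.68, 8.56 and 8.53 in Ndel1 ko/+. Mixed A read 9.29, 9.68 and 9.07, and mixed B 8.80, 9.25 and 9.06. The ko/cko arrays lay above all ko/+ arrays, which were below all wild-type arrays, and among the wild types they overlapped with mixed A and lay above mixed B. Cntn2 was 1.05 ± 0.16 higher in ko/cko than in ko/+ (adjusted p = 0.000197), and the call held in all 6 fits that left out 1 array (1.02 to 1.10). The latter include the fit without Ndel1 ko/cko replicate 3, whose Xist level was 11.54, where replicates 1 and 2 had 4.54 and 4.26. Ndel1 ko/cko was 0.29 above mixed A and 0.60 above mixed B (adjusted p over both = 0.666), and ko/+ was 0.76 below mixed A and 0.45 below mixed B (adjusted p over both = 0.104). Of the other Cntn2 probe sets 1 was called, at 1.44 ± 0.24 (adjusted p = 0.000836), and the others read 0.63 ± 0.20 (adjusted p = 0.0519) and 0.23 ± 0.16 (adjusted p = 0.436).

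St8sia2 was 0.36 ± 0.11 higher in Ndel1 ko/cko than in ko/+ (10.04, 10.17 and 10.16 against 9.97, 9.58 and 9.75; adjusted p = 0.032). Cntn1 was 0.35 ± 0.11 lower (10.92, 11.09 and 11.02 against 11.50, 11.20 and 11.40; adjusted p = 0.0395), and Ncam2 was 0.53 ± 0.17 lower (5.88, 6.32 and 6.01 against 6.62, 6.54 and 6.63; adjusted p = 0.047). The arrays of ko/cko and ko/+ were apart for all 3, but the share of all genes with arrays apart was not counted. Relative to the mixed wild types none of the 3 was called. Each of the 3 calls ended in 5 of 6 fits that left out 1 array, with adjusted p up to 0.178 for St8sia2, 0.175 for Cntn1 and 0.193 for Ncam2; only without ko/+ replicate 1 (St8sia2), ko/+ replicate 2 (Cntn1) or ko/cko replicate 2 (Ncam2) did they hold. The Ncam2 call also ended with the mean of both probe sets (-0.15, adjusted p = 0.4865), the replicate block (adjusted p = 0.0512), no filter (adjusted p = 0.0661) and all 78 arrays in 1 fit (adjusted p = 0.161). Other probe sets were called for St8sia2 (0.49 ± 0.09, adjusted p = 0.00248) and Cntn1 (-0.64 ± 0.12, adjusted p = 0.0019), and the remaining Cntn1 probe set read -0.01 ± 0.16.

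Among 66 partner genes tested in the same comparison, 4 were higher and 4 lower in ko/cko, where 9.13% of all genes were called. Fgfr1 (0.55 ± 0.15), tenascin-C (Tnc, 0.53 ± 0.11), Ezr (0.50 ± 0.15) and Rdx (0.35 ± 0.11) were higher. Cntn4 (-0.88 ± 0.24), Cadm3 (-0.41 ± 0.11), Gap43 (-0.30 ± 0.05) and Negr1 (-0.24 ± 0.07) were lower. Against both mixed wild types no partner was called in ko/cko (0.840% of genes). In ko/+ (4.04% of genes) Nptn was higher, and Bsg, Kirrel3, Nrp2 and Ezr (-0.67 ± 0.15, limma adjusted p = 0.0306) were lower. The neural progenitor markers, 9 of 9 on the array above the filter, read 8.34 (8.34 to 8.35) in ko/cko and 8.01 (7.99 to 8.03) in ko/+, those of migrating and newborn neurons 9.13 (9.07 to 9.22) and 8.80 (8.68 to 8.90), and those of astrocytes 8.41 (8.32 to 8.50) and 8.69 (8.63 to 8.79). Their part in the differences was not tested.

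**Figure D5:**
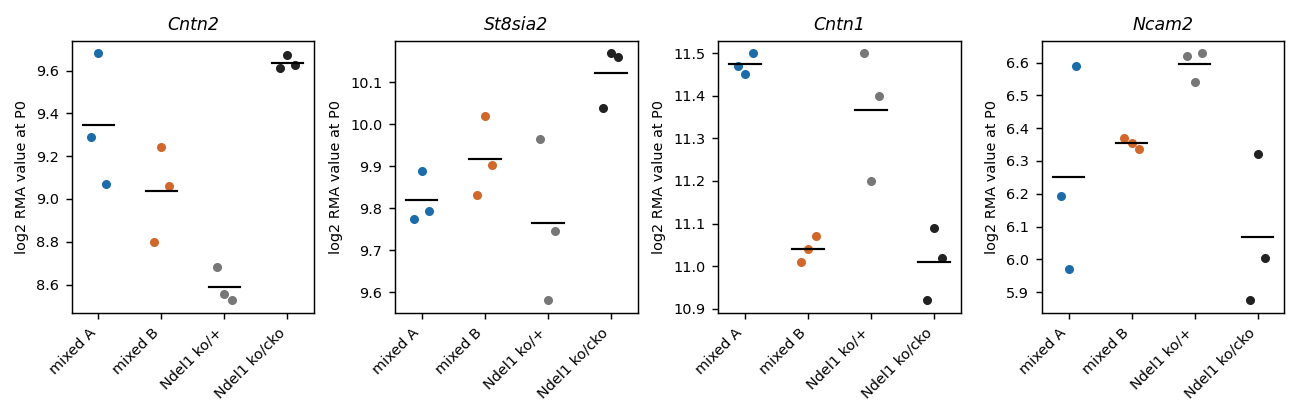
Log2 RMA value at P0 (y axis, scale differs between panels) of Cntn2, St8sia2, Cntn1 and Ncam2 on each array of the mixed A and mixed B wild types, Ndel1 ko/+ and Ndel1 ko/cko (x axis; black bars are means of 3 arrays). For Cntn2 the ko/cko arrays lie between 9.61 and 9.67 and the ko/+ arrays between 8.53 and 8.68.

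Outside these calls, each mutant was also compared with the mixed wild type on its side of the first principal component alone. Lis1 ko/cko at P0 had more Nfasc than mixed A (9.16, 9.31 and 9.08 against 8.59, 8.80 and 8.44; 0.58 ± 0.16, adjusted p = 0.0476, with 2.36% of genes called) and was not called over both controls (0.64 ± 0.16, adjusted p = 0.11), although its arrays lay above those of both. Ndel1 ko/cko at P0 had more Cntn2 than mixed B (0.60 ± 0.16, adjusted p = 0.0259, with 3.67% of genes called). No member was called in Lis1 ko/+ against mixed A at P0 (0% of genes) or P14 (0.00813%), nor, against mixed B, in Ndel1 ko/+ at P0 (9.47%) or P14 (0%), Ndel1 ko/cko at P14 (0.179%) or Dcx ko/Y at P0 (0.0340%). The choice of the control was made with these arrays in view, and both wild types are shared by several mutants.

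At E14 the spread of these genes went with the 6 arrays of low midbrain, hindbrain and cord markers. On those arrays Ncam2 read 4.97 on average (4.72 to 5.16) against 5.92 (5.54 to 6.32) on the other 18, Cntn1 8.83 against 9.52, and Cntn2 9.76 (9.51 to 9.92) against 9.06 (8.77 to 9.31). Ncam2, Cntn2, St8sia4 (9.93 to 10.47 against 10.63 to 10.81), Chl1 and Nrcam, 5 of the 10 genes, did not overlap between these arrays; neither did 10.2% of the 11743 genes tested at E14. L1cam read 10.59 and 10.65. Without the 6 arrays mixed A at E14 kept replicate 1 only, so effect sizes alone are given for that fit. From E14 to P0 St8sia4 then changed by -0.78 and Ncam2 by 0.58 before the shift of the median gene. The E14 wild-type arrays kept had region markers of 6.63 in mixed A and 5.87 to 6.23 in mixed B. The part of region content in the step was not tested. The 6 arrays were picked by their marker level, so these values are a description, and they fall in 4 of the 8 E14 groups.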

How the data were processed

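Total RNA of mouse brain was measured on 78 arrays. Per the submitters' processing notes the authors summarized them by RMA (its version is not stated in the sources used), and the deposited values are log2. They lie between 2.606 and 14.24; depth has no counterpart on arrays, and 3 arrays a group limit the precision. The replicates are labelled biological; separate animals are not named, and p-values measure the spread between these samples. Sorted columns differed by a median of 0.0342 within an age and 0.157 between ages. Among 45101 probe sets, 34945 name 1 gene and were used (18193 genes); 932 name several, 64 are controls and 9160 have no listed gene. Tests took genes with at least 1 group mean of 5.253 or more, that value being the median over the whole table.

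R 4.3.3 and limma 3.58.1 (eBayes with trend) were used: 1 fit per age, 1 over 24 wild-type arrays and 1 over all arrays for interactions. P-values were adjusted by Benjamini-Hochberg over all genes tested (11743 at E14, 11779 at P0, 12296 at P14, 12864 in wild types, 13052 over all), with calls at 0.05. Where both mixed wild types are used, the p-value is the larger of the pair if signs match and 1 otherwise, the change is their mean and the SE the larger. All members were tested in every comparison, and outside the wild-type steps uncalled members are mostly given as counts. Also named are up to 4 called genes a list in wild types and up to 3 of the genes most correlated with each member. Further genes of a list, such as Msn and Ezr, and array facts were named after their values were seen.

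The members and gene lists were chosen with earlier results of these data known. The scripts were tested on simulated data with known changes. Promoters were read from a RefSeq table of GRCm38.p6; the array annotation names no build. Alternatives were another filter, the mean of all probe sets, quantile normalization, a replicate block, 1 fit of all arrays, other controls and leaving out each array.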

Additional observations from a re-analysis of the deposited data

Results flagged for a closer look

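Of the 10 members, St8sia4 was the only one whose step with age differed between groups by a test of the difference itself. From P0 to P14 its change in Lis1 ko/cko differed by -1.30 on the log2 scale from that of the mixed wild types (limma interaction over all 78 arrays, adjusted p = 0.0224), where 2.87% of the 13052 genes were called. The second probe set of St8sia4 gave -0.03, and with the mean of all probe sets the value was -0.66 (adjusted p = 0.301).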

How the results depend on the processing

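The counts of called members in the wild-type steps stayed within 1.5 times of 6, 9 and 10 in every alternative run, as did those of mixed A against mixed B and of the mutants at E14. The genes behind a count could change. With the mean of all probe sets Ncam2 was no longer called from E14 to P0 and Nrcam was called lower. Nfasc was then no longer called from P0 to P14 in the mixed backgrounds. Between mixed A and B the calls of Chl1 and Cntn1 at P0 and of Chl1 and Cntn2 at P14 ended there, and Nrcam was called in the other direction. Of 60 values of ko/cko against ko/+, 5 were called in the fits reported, 2 with no filter, 3 with the mean of all probe sets and 2 with all 78 arrays in 1 fit. For mutants at P0, 0 became 1 with the replicate block, 1 with all 78 arrays in 1 fit, 16 with mixed A alone, 8 with mixed B alone and 7 with the mean of both. For mutants at P14, 1 became 15, 21 and 15 with these controls; for the interaction, 1 became 15, 10 and 6, and 0 with the mean of all probe sets. For inbred against mixed, 0 became 11 with mixed B alone, 8 with the mean of both and 1 with the mean of all probe sets. These counts are sums over mutants, and the share of all genes called moved with the single control. At P0 it ran over the mutants from 0% to 42.9% with mixed A and from 0.034% to 32.8% with mixed B. At P14 it ran from 0.00813% to 52.8% and from 0% to 59.7%. In the interaction it ran from 0% to 28.0% and from 0.0306% to 27.4%. For inbred against mixed B it was 45.4% at P0 and 48.6% at P14. For the mean of both controls, the replicate block, no filter, the mean of all probe sets, quantile normalization and 1 fit of all arrays that share was not counted. Counts of members under those settings are therefore no result about the members. Reversed values from E14 to P0, unshifted, were Nrcam -0.44 and Nfasc 0.033 with the mean of all probe sets, St8sia2 0.19, Nfasc 0.011 and Cntn2 0.11 with quantile normalization, and Cntn2 0.17 without the 6 E14 arrays of low region markers; at P0 between mixed A and B, Chl1 became 0.12 and Nrcam -0.27 with the mean of all probe sets. The cause was not tested.

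Leaving out each array gave 5 to 6 called members from E14 to P0, 9 to 9 and 10 to 10 after birth (mixed, inbred), 0 to 0 for mutants at E14, 0 to 1 at P0 and 0 to 1 at P14, 0 to 0 for inbred mutants and inbred against mixed, 2 to 6 for ko/cko against ko/+, 8 to 10 for mixed A against B and 0 to 2 for interactions. Same-numbered replicates of different groups did not deviate together in the median (r -0.00806 at E14, -0.0103 at P0 and 0.012 at P14). Single pairs ran from -0.818 to 0.755 at E14, -0.467 to 0.47 at P0 and -0.328 to 0.365 at P14. A median over all groups cannot show whether some of them are paired. The block gave 4 of 60 in ko/cko against ko/+ and 1 of 50 in mutants at P0. The second St8sia4 probe set lay near the filter at P14, but it read lower in the inbred wild type (4.92) than in Lis1 ko/cko (5.21). Whether its low level bears on the missing difference was not tested.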
